A study of Mus musculus and Homo sapiens with 4 samples.

Results

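Phospholamban, encoded by PLN, and 9 further genes of endoplasmic reticulum calcium handling were described in a pair of tumour cell lines. Each line was measured with and without knock-down of Merm1. The members were every probe set whose platform symbol was PLN, JSRP1, ATP2A2, ATP2A3, ITPR1, ITPR2, ITPR3, STIM1, STIM2 or ORAI1, in upper or lower case. This gave 32 of 54675 probe sets for all 10 genes on the human array and 25 of 45101 for 9 genes on the mouse array, where no probe set analysed here carried the symbol Itpr1. PLN and JSRP1 were chosen by their measured A375M differences, which were among the largest, so those values are a description and support nothing.

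The study used 4 arrays, 1 for each group, on LM8 (a murine osteosarcoma line) and on A375M (a melanoma line of human origin). Control LM8 and control A375M cells were stably infected with the pSIREN-RetroQ-control retrovirus. The Merm1/Wbscr22 knock-down cells were stably infected with the same vector carrying a short hairpin RNA against mouse Merm1 in LM8 or human Merm1 in A375M. All groups therefore carry an integrated retrovirus, and the labels do not say whether a line was a clone or a pool of infected cells, or how many hairpins were tested. Merm1/Wbscr22, now BUD23, encodes a methyltransferase of small-subunit ribosomal RNA. The values were log2 RMA expression values, which summarise the probes of a probe set after background subtraction and equalising of the arrays. Each difference is the knock-down minus the control value on that log2 scale. With 1 array per group there was no replicate check, no test and no error of a difference, and precision is limited by that single array. Probe sets differ in their affinity, so no level was set against that of another probe set.

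The endoplasmic reticulum holds a calcium store that is filled by the pumps of the SERCA family, encoded by the ATP2A genes. Phospholamban is a small membrane protein that inhibits the SERCA pump in heart muscle until it is phosphorylated by cyclic AMP-dependent kinase or by calmodulin-dependent kinase. Inositol trisphosphate receptors (ITPR genes) release the store, and an emptied store is sensed by STIM proteins, which open ORAI channels in the plasma membrane. JSRP1 encodes a junctional protein of the sarcoplasmic reticulum of skeletal muscle, which contacts the voltage sensor and calsequestrin.

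The labels were checked on the target gene, on the lines' own markers and on the recurrence of values. BUD23 differed by -2.32 in A375M (10.70 to 8.38), while its other probe set there differed by -0.12, and Bud23 by -2.13 in LM8 (10.61 to 8.48). Of the melanocyte markers, 8 of 9 measured genes lay above the array median in both A375M arrays, and 4 of 10 in both LM8 arrays. Of the osteoblast markers 7 of 7 did so in LM8 and 5 of 9 in A375M. Among all genes, 13244 of 19773 in A375M and 11646 of 18193 in LM8 lay above it in at least 1 array. In A375M 45.4% of non-control probe sets carried one identical value on either array, and 0.706% did so in LM8, and 67.3% of A375M control values recurred in another probe set. A difference of 0 in A375M is therefore common and its resolution is coarse. As a technical gauge, the differences given by separate probe sets for the same gene had a median SD of 0.071 in A375M (6265 genes) and 0.12 in LM8 (5313 genes). That gauge holds no spread between cultures.

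The inhibitor of the pump is given first. PLN was higher in the A375M knock-down array on 3 of 3 probe sets. The brightest probe set of PLN read 5.62 in control cells and 6.71 in knock-down cells, a difference of 1.09, or 2.14-fold. On the next probe set PLN read 3.97 in control cells and 6.30 in knock-down cells, a difference of 2.33, or 5.03-fold. The dimmest PLN probe set read 3.36 and 4.75, a difference of 1.39, or 2.62-fold. On the last 2 of these probe sets PLN was below the array median of 4.64 in control cells, where signal over background is small, and on the first it was above. With 32 added to the linear values, which damps differences of low signals, PLN was at 0.76 and JSRP1 at -0.41, both short of 2-fold. The probe sets agreed in direction but not in size, with an SD of 0.65 between their differences.

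Each PLN probe set also held a value that recurred elsewhere on the same array. The control value of the probe set with the highest mean was shared with 110 other probe sets, the knock-down value of the next with 71 and that of the dimmest with 295. The other value of each pair was unique on its array. The part of this recurrence in the size of the differences was not tested.

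Among 13244 A375M genes kept for lying above the array median in at least 1 array, PLN ranked 9 from the highest difference. A 2-fold threshold was passed upwards by 0.0831% of kept genes and downwards by 0.0453%, and a 3-fold threshold by 0.0227% and 0.0151%. PLN and JSRP1 were the 2 of 10 kept members past 2-fold, which is what they were chosen for. The 5 kept genes nearest to PLN in the size of their A375M difference, over the pair of arrays, were CD36 (1.05), FRG2EP (1.02), AGT (1.00), AMPH (0.99) and SPX (0.96). In bulk RNA a higher level in every cell and a larger share of cells with the transcript cannot be told apart.

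In LM8 none of the 3 Pln probe sets lay above the array median of 5.29. Its brightest probe set read 4.46 in control cells and 4.12 in knock-down cells, a difference of -0.33. The others read 3.75 and 3.71, a difference of -0.04, and 3.11 and 3.22, a difference of 0.10. Pln was thus dim on both LM8 arrays, its probe sets differed in sign, and it was not kept there. Whether the response of the gene differs between the lines was not tested.

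**Figure D1:**
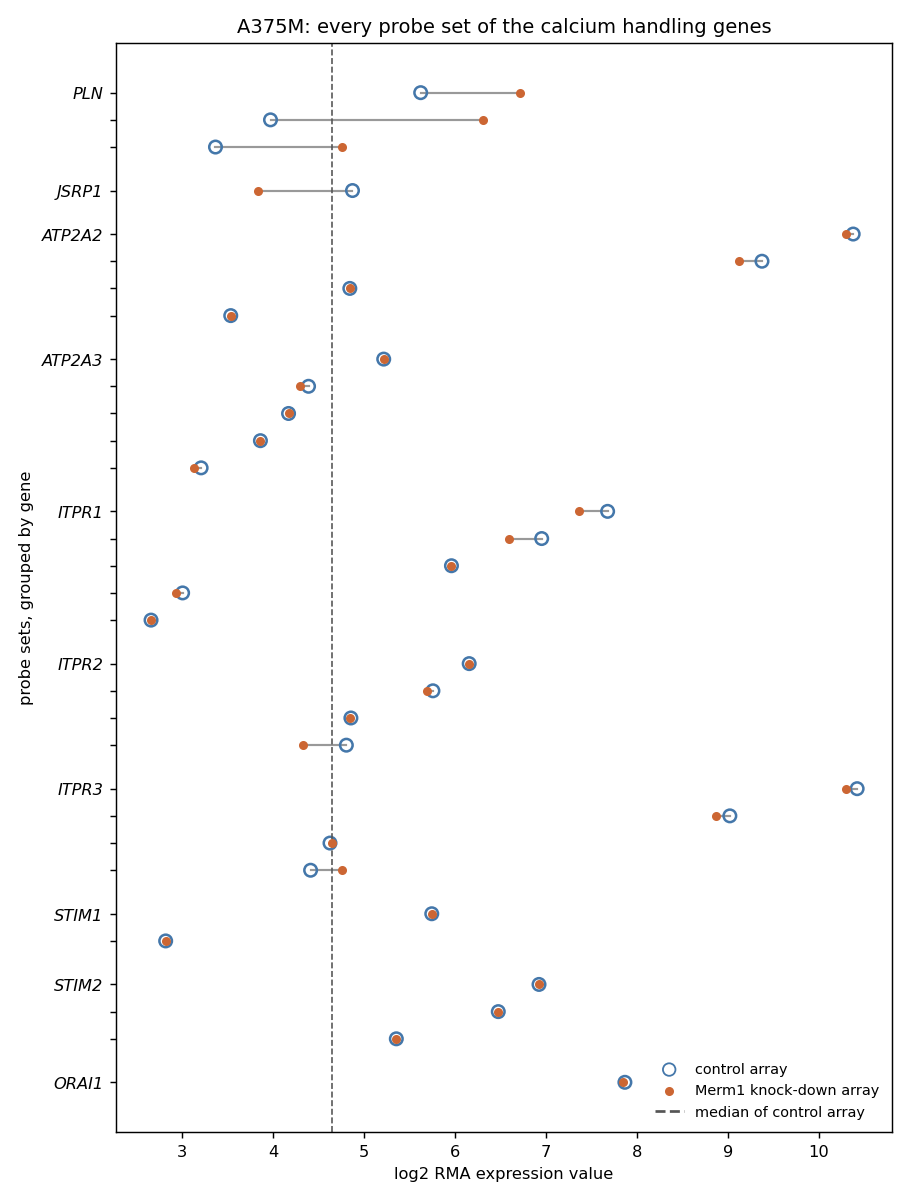
Log2 RMA values (x axis) of the 32 human probe sets of the 10 genes in the A375M control array (open circles) and knock-down array (filled points), with 1 line per probe set and a dashed line at the control median of 4.64. The 3 PLN lines run to the right, the JSRP1 line runs to the left from 4.87 to 3.83, and 13 probe sets show the filled point centred in the circle.

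JSRP1 was lower in the A375M knock-down array. Its only human probe set read 4.87 in control cells and 3.83 in knock-down cells, a difference of -1.04 that left 48.5% of the control level. JSRP1 was above the median in control cells by a small margin and below it in knock-down cells, so the size of the difference is imprecise. Neither value recurred in another probe set. JSRP1 ranked 4 from the lowest of the kept genes, and the 5 genes with the nearest differences were TPRG1L (-1.03), SHCBP1 (-1.03), MEGF10 (-0.99), COL12A1 (-0.98) and CCL2 (-1.20). In LM8 the Jsrp1 probe set lay above the array median in both arrays and read 7.26 and 6.99, a difference of -0.27. The gene was lower in the knock-down array of both lines, and 7.38% of kept LM8 genes differed by at least as much downwards.

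Of the pump genes, ATP2A2 had a small difference of opposite sign in the lines, and ATP2A3 was identical in A375M on its brightest probe set. ATP2A2, which encodes SERCA2, the pump of most tissues, read 10.38 and 10.30 in A375M on the probe set with the highest mean, a difference of -0.08. Another ATP2A2 probe set read 9.37 and 9.12, a difference of -0.26. The remaining 2 were identical in both arrays, at 4.84 and 3.53. In A375M 23.7% of kept genes differed downwards by at least as much as the first of these.

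In LM8 Atp2a2 was higher on 5 of 6 probe sets. The brightest, by the mean of both arrays, read 12.44 in control cells and 12.56 in knock-down cells, a difference of 0.12. The middle probe sets gave differences of 0.36 (8.89 to 9.25), 0.42 (7.88 to 8.30) and 0.31 (6.68 to 6.99). Another above the median was at -0.04, and the one below it was at 0.28. The brightest probe set thus gave a smaller difference than the middle ones, and the mean over the 6 probe sets was 0.24 with an SD of 0.17. Of kept LM8 genes 24.7% differed upwards by at least 0.12.

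ATP2A3, which encodes SERCA3, the pump of blood and some epithelial cells, had 5 human probe sets, and 4 of them lay below the A375M array median. The brightest read 5.21 in both arrays, and the rest differed by -0.09 to 0. In LM8 the Atp2a3 probe sets were higher by 0.08 (6.66 to 6.75) and 0.19 (5.83 to 6.01). ATP2A1, the fast skeletal muscle pump, belongs to the wider list and on its brightest probe set read 4.17 in both A375M arrays and 5.30 and 5.34 in LM8.

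**Figure D2:**
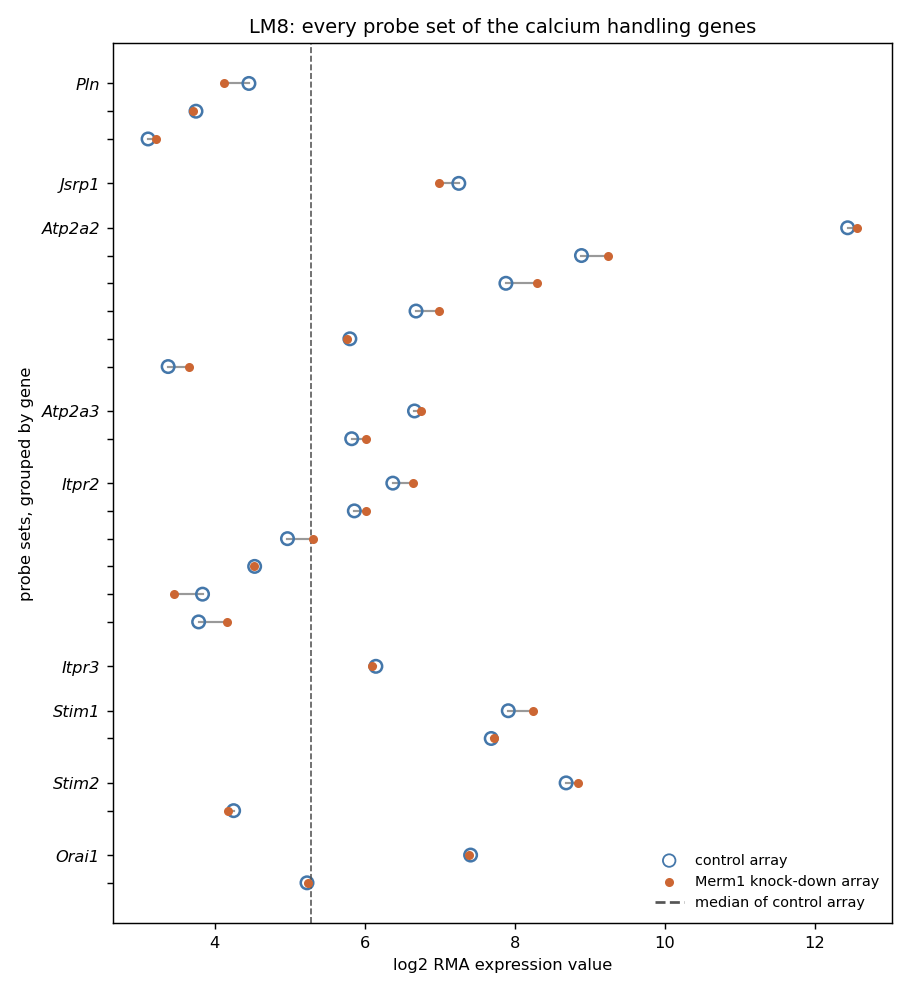
Log2 RMA values (x axis) of the 25 mouse probe sets of the 9 genes in the LM8 control array (open circles) and knock-down array (filled points), with a dashed line at the control median of 5.29. All Pln points lie left of that line, and 5 of 6 Atp2a2 lines run to the right.

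Among kept genes of the release channels, each read on its brightest probe set, the receptor ITPR1 had the most negative difference in A375M. A dim ITPR2 probe set (-0.48) and RYR2 (-0.35), which was not kept, were further below 0. The brightest ITPR1 probe set read 7.68 in control cells and 7.36 in knock-down cells, a difference of -0.31. The next ITPR1 probe set read 6.95 and 6.59, a difference of -0.36. Another was identical at 5.96, and the 2 dim ones differed by -0.07 and 0. The bright probe sets were both lower, while 2.99% of kept A375M genes differed downwards by at least 0.31. The mean over all 5 ITPR1 probe sets was -0.15.

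ITPR2 was lower by 0.06 (5.75 to 5.70) on one human probe set and identical at 6.15 on the one with the highest mean. A dimmer ITPR2 probe set read 4.80 and 4.33, a difference of -0.48, with the knock-down value below the array median, and the last differed by -0.01. In LM8 Itpr2 was higher on 4 of 6 probe sets. The one with the highest mean read 6.38 and 6.64, a difference of 0.27, and the others ranged from -0.38 to 0.37. Those at the ends of that range lay below the array median of LM8.

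ITPR3 read 10.42 and 10.30 on its highest human probe set and 9.02 and 8.87 on the next, differences of -0.12 and -0.15. The remaining ITPR3 probe sets were dim in control cells (4.62 and 4.41) and gave 0.02 and 0.34, so the sign of the gene depended on the probe sets used. In LM8 the single Itpr3 probe set read 6.15 and 6.09, a difference of -0.06. Every ITPR probe set above the array median in both A375M arrays was lower or identical. Of all non-control A375M probe sets 28.6% were lower and 45.4% identical. The ITPR3 probe set at 0.34 was above the median in knock-down cells alone.

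STIM1, STIM2 and ORAI1, the members that act in store-operated entry, were identical or within 0.02 of each other in the A375M arrays. STIM1, the main calcium sensor, read 5.74 in both arrays on its brighter probe set and 2.82 in both on the other. STIM2, the sensor of small losses from the store, was identical on all 3 probe sets, at 6.92, 6.47 and 5.35. ORAI1, the pore subunit of the channel, read 7.87 and 7.84, a difference of -0.02. All STIM values recurred in at least 40 other probe sets of their array, so these zeros hold only to the step between recurring values.

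In LM8 Stim1 read 7.91 in control cells and 8.24 in knock-down cells, a difference of 0.33, and 7.69 and 7.72 on the other probe set, a difference of 0.04. Stim2 read 8.69 and 8.85, a difference of 0.17, and its dim probe set differed by -0.08. Orai1 read 7.41 and 7.39, a difference of -0.02, and 5.23 and 5.25 on the other. Upward differences of at least 0.33 were found in 5.59% of kept LM8 genes.

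**Figure D3:**
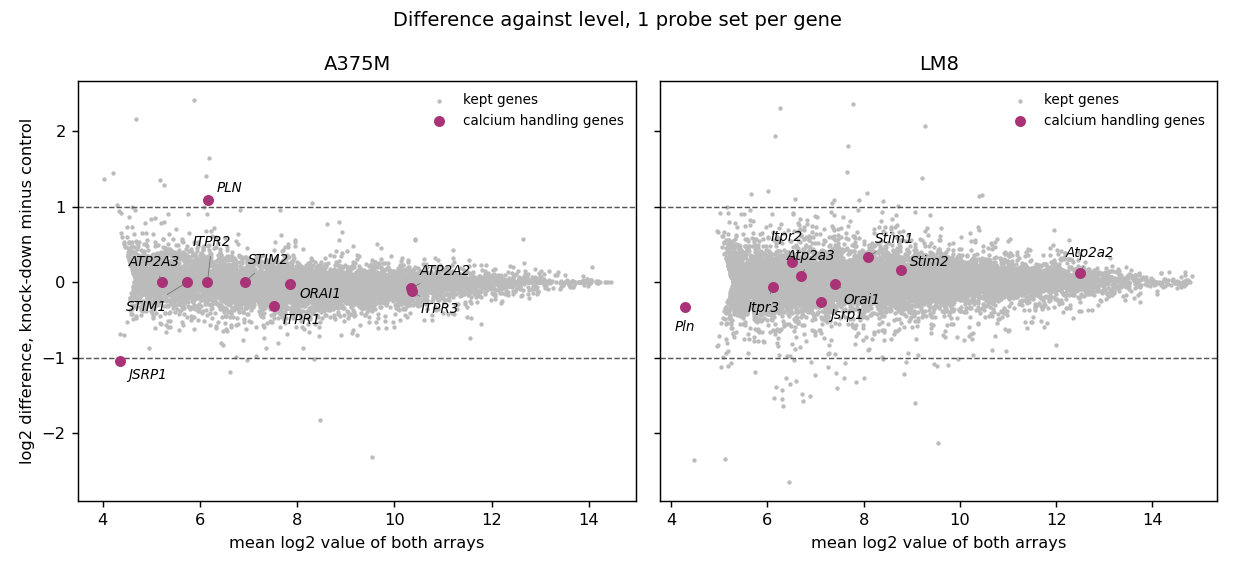
Difference in log2 value between knock-down and control array (y axis) against the mean of both arrays (x axis), with 1 probe set per gene, for kept genes (grey) and the calcium handling genes (purple), and dashed lines at 2-fold. PLN and JSRP1 lie beyond the lines in A375M, and the other members range from -0.31 to 0 in A375M. In LM8 the members range from -0.33 for Pln, which is not a kept gene, to 0.33 for Stim1.

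Counted over probe sets, 5 of the 32 in A375M were higher, 14 lower and 13 identical, against 26%, 28.6% and 45.4% of all non-control probe sets. Without PLN and JSRP1 the counts were 2 higher, 13 lower and 13 identical of 28, and the differences ranged from -0.48 to 0.34. In LM8 16 of the 25 were higher and 9 lower, against 50.5% and 48.8% of all. No LM8 member reached 1.5-fold in either direction, a size that 1.16% of kept genes passed upwards and 1.31% downwards. The shares of kept LM8 genes were 0.155% and 0.318% at 2-fold and 0.0429% and 0.0515% at 3-fold, and 0.172% were identical. The median over the kept members was -0.01 in A375M (10 genes) and 0.10 in LM8 (8 genes), beside 0 and 0.01 over all kept genes.

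The rest of the pathway was described by 10 lists holding 178 genes, members included. Of these 131 were kept in A375M and 126 in LM8. In A375M 35 were higher, 53 lower and 43 identical, with a median of 0, and among all kept genes 29% were higher, 40.3% lower and 30.8% identical. On the probe set with the highest mean, no gene of the lists other than PLN and JSRP1 reached 1.5-fold there. Of all kept genes 0.378% did so upwards and 0.37% downwards. Another probe set of SLC8A1 was at 0.85 in A375M. In LM8 70 were higher, 55 lower and 1 identical, with a median of 0.04, and 53.8% of all kept genes were higher and 46% lower. Read in the same way, 1 gene, Pde4d, passed 1.5-fold in LM8. Other probe sets passed that size there, such as one of Cisd2 at -0.89, whose brightest was at 0.30, and one of Septin4 at -0.68.

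Other regulators of the pump were read at low and at high levels. SLN (sarcolipin), MRLN (myoregulin) and STRIT1, which encodes a micropeptide that activates SERCA, were each identical in both A375M arrays, at 4.26, 2.82 and 2.16, all below the array median. ARLN (another-regulin) read 9.11 and 9.16, a difference of 0.05, with 3 of 3 probe sets higher, by up to 0.20. ERLN (endoregulin) was dim, at 3.23 and 3.31. HAX1, a phospholamban-binding protein gene, differed by 0.11 in A375M and -0.12 in LM8. S100A1, which encodes a calcium-binding protein that stimulates SERCA in heart, was higher in both lines, by 0.27 in A375M (8.22 to 8.49) and by 0.26 in LM8 (9.73 to 9.99).

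Among kinases and phosphatases that act on phospholamban, 17 genes were kept in A375M, with a range of -0.16 to 0.16. Of these 3 were higher, 8 lower and 6 identical, beside 29%, 40.3% and 30.8% of all kept genes. PRKAR2A, a regulatory subunit of the cyclic AMP-dependent kinase, was at 0.16, with 1 of 5 probe sets higher, 2 lower and 2 identical. CAMK2D, the calmodulin-dependent kinase of heart, was at -0.16, and PDE3A, a phosphodiesterase gene, at 0.15, with 4 of 4 probe sets higher. In LM8 20 genes were kept, with 13 higher and 6 lower, beside 53.8% and 46% of all kept genes. Pde4d, which degrades cyclic AMP, read 7.30 and 8.12, a difference of 0.82, and its other probe set differed by 0.04. Akap7, an anchoring protein of the kinase, differed by 0.57, with its other probe set at -0.33, and Prkar1a by -0.40.

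Of the kept release and leak genes in A375M, those other than ITPR1 ranged from -0.12 to 0.24. IRAG1 and the ryanodine receptor gene RYR1 were at 0.24 and 0.23, with control values below the array median. In LM8 Irag1 was at 0.39, Psen2 at 0.35, both with probe sets of either sign, and Tmbim6, an ER leak protein gene, at -0.34. Among the other entry genes, GRAMD2A was at 0.28 in A375M, with a control value below the array median and its other probe set at -0.17, ESYT2, a tether between ER and plasma membrane, at -0.24, and Septin4 at -0.37 in LM8.

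Of 15 ER buffer and chaperone genes kept in A375M 3 were higher and 9 lower, with a median of -0.03. Among all kept A375M genes 29% were higher and 40.3% lower. NUCB2 was at -0.23, with its other probe set at 0.15, HSP90B1 at -0.17 and HSPA5, the main ER chaperone gene, at -0.16. In LM8 8 were higher and 10 lower, beside 53.8% and 46% of all kept genes. Casq2, which encodes cardiac calsequestrin, differed by -0.56 (5.53 to 4.97), Srl by 0.39 and Hrc by -0.34. In the list of junctional proteins, JSRP1 included, 12 genes were kept in A375M with a median of 0. CASQ2 was at 0.21 there, with a control value below the array median, and TMEM38B, which encodes a counter-ion channel, at 0.14. The skeletal voltage sensor gene CACNA1S read 3.61 in both A375M arrays and CASQ1 2.75. In LM8 Tmem38a was at 0.45 and Jph4 at -0.42, and the list had a median of -0.10 over 13 genes.

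At the plasma membrane SLC8A1, the sodium-calcium exchanger of heart, was at 0.40 in A375M (5.05 to 5.45), and its 11 probe sets ranged from -0.04 to 0.85. ATP2B1, the main plasma membrane calcium pump, was at -0.30 and ATP2B4 at -0.16. In LM8 only 4 genes of that list were kept and all were lower, beside 46% of all kept genes. Slc24a4 was at -0.43, Slc8a3 at -0.38 and Atp2b1 at -0.03, with 1 of 3 Atp2b1 probe sets higher. The mitochondrial uptake pore MCU was at -0.31 in A375M (7.74 to 7.42) and at -0.08 in LM8, and MCUR1 at -0.18 and 0.25. In LM8 the other Mcur1 probe set was at -0.47, so the sign there depended on the probe set. Of the 13 mitochondrial genes kept in A375M 1 was higher, 5 were lower and 7 identical. Among all kept A375M genes the shares were 29%, 40.3% and 30.8%.

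Upstream and downstream of the store the differences were of similar size. PLCL1, a catalytically inactive phospholipase C relative, was at 0.40 in A375M (5.10 to 5.50) and INPP5A, which degrades inositol trisphosphate, at -0.21. In LM8 Gnaq was at 0.35 and Plcb1 at 0.34, where the 5 Plcb1 probe sets ranged from -0.19 to 0.34. CAMK4, a calmodulin-dependent kinase gene, was the lowest of the non-members in A375M, at -0.54 (6.79 to 6.26), while its other 2 probe sets were identical. The calcineurin subunit genes PPP3CC and PPP3CA were at -0.35 and -0.21 in A375M. Of 5 PPP3CC probe sets 1 was higher, 1 lower and 3 identical. In LM8 Ppp3ca was at 0.46, with all 3 probe sets between 0.46 and 0.49, and Nfatc4 at 0.52 with probe sets of either sign.

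**Figure D4:**
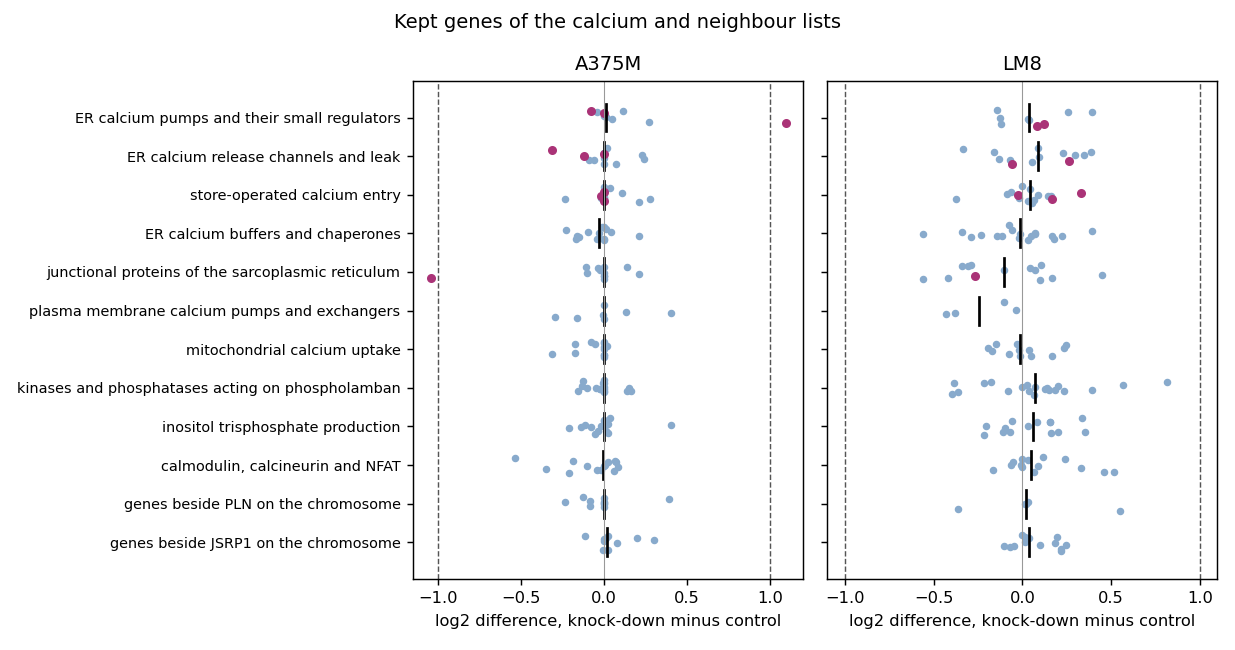
Log2 difference (x axis) of every kept gene in the 10 calcium lists and the 2 lists of chromosomal neighbours, for A375M and LM8, with members in purple, a black bar at the list median and dashed lines at 2-fold. The median bars lie at or near 0 in A375M, and only PLN and JSRP1 lie beyond the dashed lines.

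No kept chromosomal neighbour of PLN reached 1.5-fold in A375M, a size passed by 0.378% of kept genes upwards and 0.37% downwards. Few genes reach that size, and a difference shared across the region was not tested. PLN is known to lie within an intron of CEP85L. CEP85L was identical in both A375M arrays on both of its probe sets, with the brighter at 8.23, and SLC35F1 was identical at 9.05. MCM9 was identical at 5.77 on its probe set with the highest mean and its 3 probe sets ranged from 0 to 0.41. Of 10 kept neighbours 1 was higher, 4 lower and 5 identical, beside 29%, 40.3% and 30.8% of all kept genes. MAN1A1 was at 0.39 and GOPC at -0.23 (its 5 probe sets ranged from -0.23 to 0.23). Beside JSRP1, the adjacent gene OAZ1 was at -0.01 (13.21 to 13.20), LINGO3 at 0.30 and LSM7 at 0.20, and of 10 kept neighbours 6 were higher and 2 lower. The neighbours were listed by name and then looked up in a RefSeq mouse gene table of GRCm38.p6. There 11 of 13 and 14 of 15 listed neighbours were found under the same symbol on the chromosome of Pln and of Jsrp1. MAN1A1 and KPNA5 were not found under those symbols on that of Pln. Other mouse names were not looked up, so their mouse position was not settled, and human adjacency was not checked.

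Muscle markers were read because PLN and JSRP1 are muscle genes. Of the cardiac markers 6 of 13 measured lay above the array median in both A375M arrays, and the summed log2 values of all 13 were 62.5 in the control and 62.7 in the knock-down array. Those 6 were NKX2-5 (7.56 and 7.68), ACTN2 (6.87 and 6.65), ACTC1 (5.30 and 5.42), MYL3 (4.93 and 5.01), and NPPA and MYL7, identical at 5.32 and 5.15. MYH7 (4.51 and 4.68) and CASQ2 (4.57 and 4.78) lay above the median in knock-down cells alone. The other 5 cardiac markers, MYH6 (3.13 in both), MYL2 (3.06 and 3.12), NPPB (3.46 in both), TNNI3 (4.17 in both) and RYR2 (4.51 and 4.16), lay below the median in both arrays. Of the skeletal markers 3 of 14 lay above the median (sums 52.2 and 52.5), and of the smooth muscle markers 5 of 8 (43.3 and 43.2). Among all genes 13244 of 19773 lay above the median in at least 1 A375M array, a looser rule than both arrays. None of the kept muscle markers reached 1.5-fold in A375M. Leukocyte markers were above the median in 2 of 5 genes. RMA gives no value of 0, so absence was not measurable, and the part of these markers in the PLN and JSRP1 values was not tested.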

How the data were processed

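Total RNA of 4 groups of cells was measured on Affymetrix arrays, 1 per group, per the labels' protocols. The authors deposited log2 values for each probe set, and the submitters' processing notes name RMA. Its version and whether arrays were processed together are not given in the sources used here. When sorted, values of control and knock-down arrays lay within 0.075 of each other in A375M and 0.064 in LM8, so a global shift would not be seen. Probe sets with 1 symbol in the supplied platform annotation were used, 41091 human and 34945 mouse. Older symbols of list genes were matched by hand or through RefSeq synonyms.

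The probe set with the highest mean stood for a gene, which was kept above the 50th percentile in at least 1 array, which kept 13244 of 19773 human and 11646 of 18193 mouse genes. Differences were counted at 2-fold. Alternatives changed the scaling, the probe sets used, the filter, the threshold and the weight of low values. The members and lists were chosen with earlier results of these data known. Named genes were all members, up to 3 kept genes with the largest differences per list and line, genes past 1.5-fold, BUD23, and the 5 nearest to PLN and to JSRP1. Genes named outside that rule, such as SLN, MRLN, STRIT1, ARLN, ERLN, ATP2A1, RYR2, the cardiac markers, CACNA1S, CASQ1, CEP85L, SLC35F1, MCM9 and OAZ1, were chosen after their values were seen. Python 3.11.15 with pandas 2.3.3 and statsmodels 0.14.6 was used, and the scripts were tested on simulated data. Some list genes, among them calmodulin genes and mouse Itpr1, were not analysed here.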

Additional observations from a re-analysis of the deposited data

Results flagged for a closer look

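PLN was marked for a closer look because its difference had opposite signs in the lines. On the probe set with the highest mean it was 1.09 in A375M and -0.33 in LM8. Each line held 1 array per group, and the difference between the lines was not tested. All LM8 probe sets of Pln lay below the array median.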

How the results depend on the processing

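The PLN difference in A375M stayed above 0 under all 6 alternatives, from 0.76 to 1.60, and that of JSRP1 below 0, from -1.08 to -0.41. Averaged over probe sets PLN was at 1.60, without probe sets marked _x_at or _s_at at 1.39, and with 32 added to the linear values at 0.76, where JSRP1 was at -0.41. With 32 added, and with a 3-fold threshold, the counts of members past the threshold were 0 higher and 0 lower. With the filter at the 70th percentile 0 were lower, since JSRP1 was not kept. At 1.5-fold the counts were as at 2-fold. Pln in LM8 was at -0.089 when probe sets were averaged and at -0.13 with 32 added. Of list medians, plasma membrane pumps and exchangers moved to -0.085 in A375M and -0.10 in LM8 with the stricter filter, and to -0.090 in LM8 without a filter. In LM8 inositol trisphosphate production moved to -0.070 with averaged probe sets, junctional proteins to 0.043 without a filter, and release channels to -0.069 with the stricter filter. Averaging, or leaving out marked probe sets, put ITPR3 in A375M at 0.02. Averaging also moved ITPR1 (-0.15) and ITPR2 (-0.14) in A375M and Atp2a2 (0.24), Itpr2 (0.13), Stim1 (0.18) and Stim2 (0.04) in LM8. Other member values and list medians moved by less than the median SD between probe sets of a gene, under median centring, repeated quantile normalization and removal of a loess curve too. Without marked probe sets ATP2A3 had no human value. The cause of these shifts was not tested where none is named. No paired analysis was possible because each group held 1 array. Low signal over background limits PLN, JSRP1 and Pln.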
